A study of Mus musculus with 47 samples.

Results

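The cholesterol genes described here are 7 of the 18193 genes that had a probe set of their own on the arrays. Hmgcs1, Mvk, Idi1, Fdft1, Sqle and Lss code for enzymes of cholesterol synthesis, and Insig1 for a regulator of that pathway. They were chosen by name. Each was read from a single-gene probe set, a group of short probes that the platform annotation assigns to 1 gene. Where a gene had several, the one with the highest mean over 47 arrays was used. None of the 7 takes part in cholesterol uptake itself, so uptake is described below from a separate list of genes.

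The arrays held RNA from the leukaemic spleens of 47 mice, 1 array per mouse, taken at a terminal stage and all diagnosed with undifferentiated myeloid leukaemia. Every mouse carried Tg(ACTB-cre)2Mrt, a Cre recombinase driven by the beta-actin promoter, the Sleeping Beauty transposase allele Gt(ROSA)26Sortm2(sb11)Njen and a T2/Onc2 transposon array, whose moving copies mutate genes. The labels set apart 26 mice with a transposon insertion in Erg, a gene for an ETS family transcription factor, from 21 mice without one. Ages ran from 49 to 97 with a median of 74 in the Erg insertion mice, against 32 to 89 with a median of 54 in mice without the insertion, in a unit the labels do not give. The transposon array was TgTn(sb-T2/Onc2)6113Njen in 9 Erg insertion mice and 12 without, and TgTn(sb-T2/Onc2)6070Njen in 17 Erg insertion mice and 9 without. The sex label was female for 25 mice and male for 22. It was checked against Xist, a transcript of female cells, at a cut-off of log2 7. The label matched in 23 arrays and not in 24, so all groups below are groups of labels. No healthy spleen was among the samples used.

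Values are log2 expression values after RMA, a method that subtracts background and makes the arrays share one distribution. Array medians lay between 5.19 and 5.24, near the floor of the method, so differences of dim genes are compressed. The tumours were bulk tissue and differed in the cells they held: the mean log2 level of 14 erythroid genes ran from 6.23 to 9.28, of 8 B cell genes from 5.48 to 9.20, of 7 T cell genes from 5.15 to 8.54 and of 9 neutrophil genes from 5.29 to 9.66. In 22 arrays the pre-B cell gene Vpreb1 or the T cell gene Cd3d was above log2 7, and in 25 both were at or below it. In bulk samples, fewer cells of a type and less RNA per cell cannot be told apart.

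Cholesterol is built from acetyl-CoA. HMG-CoA synthase, coded by Hmgcs1, makes HMG-CoA, from which mevalonate is formed. Mevalonate kinase (Mvk) phosphorylates mevalonate, and the isomerase coded by Idi1 interconverts the isoprene units. Squalene synthase (Fdft1) takes the first step committed to sterols, squalene epoxidase (Sqle) oxidises squalene and lanosterol synthase (Lss) closes the ring system. Insig1 codes for a membrane protein of the endoplasmic reticulum that, when sterols are plentiful, holds back the SREBP transcription factors which switch on the genes of the pathway, Insig1 among them.

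Promoters are shown because the genes below moved together to differing degrees and SREBP and the CCAAT-binding factor NF-Y are known to act on this pathway. RefSeq promoters of GRCm38.p6 were held for 5 of the 7 genes, Hmgcs1, Mvk, Idi1, Lss and Insig1; Fdft1 and Sqle are named only. The 250 bases before the gene start were searched on both strands for a sterol regulatory element core, TCACNCCAC, and for the CCAAT box, CCAAT, which reads ATTGG on the other strand. Capitals mark the matches, all 4 promoters lie on the plus strand, and the sequences run 5′ to 3′ towards the start.
Hmgcs1, chr13:119690101-119690350: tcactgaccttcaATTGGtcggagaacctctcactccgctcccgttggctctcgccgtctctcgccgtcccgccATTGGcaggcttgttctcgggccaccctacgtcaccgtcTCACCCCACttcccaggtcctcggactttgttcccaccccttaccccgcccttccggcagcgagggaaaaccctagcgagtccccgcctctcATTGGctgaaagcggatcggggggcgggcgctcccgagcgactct
Mvk, chr5:114444019-114444268: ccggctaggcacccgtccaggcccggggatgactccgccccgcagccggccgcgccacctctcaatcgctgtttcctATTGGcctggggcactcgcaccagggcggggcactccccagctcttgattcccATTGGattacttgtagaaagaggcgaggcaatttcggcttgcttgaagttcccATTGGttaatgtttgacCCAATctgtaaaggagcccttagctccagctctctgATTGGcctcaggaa
Idi1, chr13:8885356-8885605: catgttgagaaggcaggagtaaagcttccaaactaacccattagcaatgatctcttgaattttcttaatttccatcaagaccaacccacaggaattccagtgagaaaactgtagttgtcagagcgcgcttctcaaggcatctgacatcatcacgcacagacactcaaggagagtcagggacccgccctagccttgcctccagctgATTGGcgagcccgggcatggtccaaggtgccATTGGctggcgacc
Insig1, chr5:28071162-28071411: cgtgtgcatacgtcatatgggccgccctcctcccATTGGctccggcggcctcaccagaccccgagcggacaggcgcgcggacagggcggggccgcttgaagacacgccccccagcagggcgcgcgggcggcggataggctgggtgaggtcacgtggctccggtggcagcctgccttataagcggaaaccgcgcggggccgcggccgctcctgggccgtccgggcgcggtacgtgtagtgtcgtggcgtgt

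The sterol element core stood in the Hmgcs1 promoter alone among these 5, as TCACCCCAC beginning 137 bases before the start. The same core occurred in 1.05% of 32851 RefSeq promoter windows of that length. CCAAT boxes numbered 5 in Mvk, 3 in Hmgcs1, 2 in Idi1, 1 in Insig1 and 1 in Lss, and 33.8% of all windows held at least 1. A match describes the letters in the window and is not a measured binding site, and sterol elements that differ from this core would not be found.

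The levels of the 7 genes spread to very different extents across the tumours. Hmgcs1 ran from 6.32 through a median of 6.76 to 8.36 (mean 6.87 ± 0.37, SD, n = 47), a 4.11-fold range, which was 2.43-fold, with a highest value of 7.60, without mouse 1 of those lacking the Erg insertion. Idi1 ran from 6.55 through 7.02 to 8.51 (7.15 ± 0.45), a 3.88-fold range, and Fdft1 from 5.87 through 6.49 to 7.32 (6.53 ± 0.36). These 3 SDs were larger than those of 91.0%, 94.0% and 90.0% of the 18178 tested genes. Sqle ran from 5.86 through 6.37 to 6.89 (6.36 ± 0.27), Insig1 from 5.72 through 6.22 to 6.76 (6.20 ± 0.21) and Lss from 5.36 through 5.69 to 6.00 (5.68 ± 0.15). Mvk ran from 5.24 through 5.36 to 5.51 (5.36 ± 0.057). Its SD was below the median SD of 0.081 among the 2162 genes whose mean lay within 0.1 of its own, so the Mvk probe set hardly moved.

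The highest values lay in different tumours for different genes. Mouse 1 of those without an Erg insertion (mouse numbers are names only) had the highest Hmgcs1 at 8.36 and the highest Lss at 6.00, with Idi1 at 8.25 and Insig1 at 6.65, both second highest. The next Hmgcs1 values were 7.60 in Erg insertion mouse 10 and 7.57 in Erg insertion mouse 26. Idi1 peaked at 8.51 in Erg insertion mouse 24, Sqle at 6.89 in Erg insertion mouse 12 and Insig1 at 6.76 in Erg insertion mouse 13. The 3 highest Fdft1 values, 7.32, 7.32 and 7.29, were all in mice without the insertion. By the mean of the 7 standardised values, the highest arrays were mouse 1 without the insertion (1.93 SDs above the mean), Erg insertion mouse 12 (1.15) and Erg insertion mouse 26 (0.734). The lowest were Erg insertion mouse 23 (-1.10), and mice 13 (-1.01) and 8 (-0.905) without the insertion. Mouse 1 without the insertion was the only tumour with the highest value of more than 1 of the 7 genes.

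**Figure D1:**
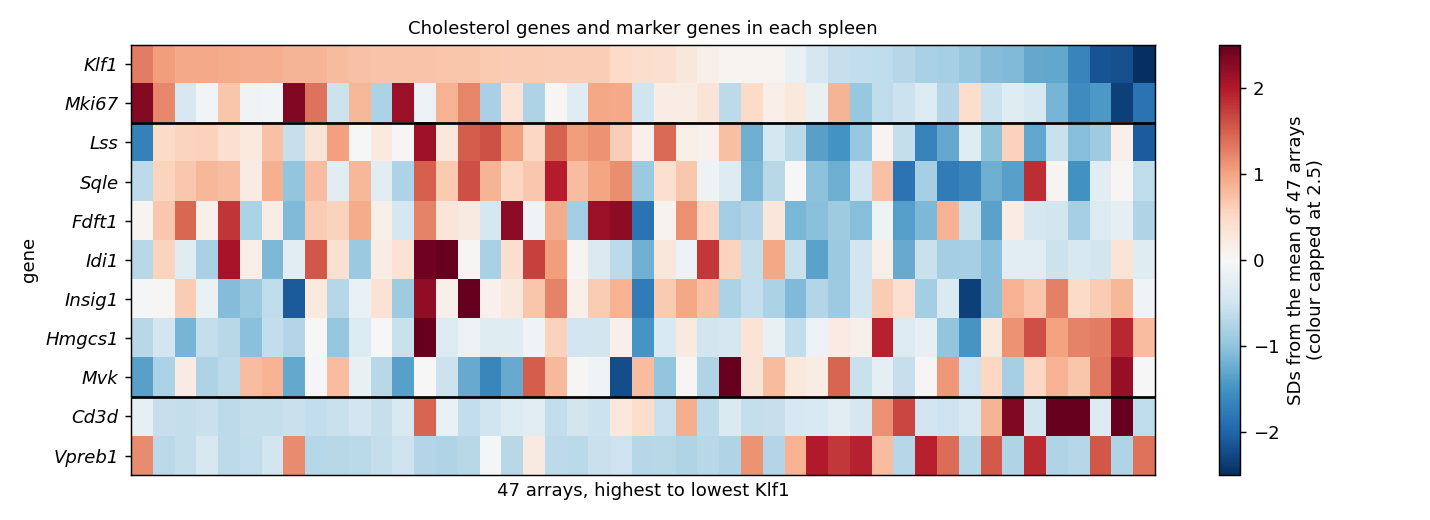
Standardised level (SDs from the mean of 47 arrays) of Klf1, Mki67, the 7 cholesterol genes, Cd3d and Vpreb1, with 1 column per array from the highest to the lowest Klf1. Lss and Sqle are mostly red where Klf1 is high, Hmgcs1 is mostly red where Klf1 is low and Cd3d is high, and 1 array left of the middle, mouse 1 without an Erg insertion, is dark red for Lss, Idi1, Insig1 and Hmgcs1.

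Where a gene had other single-gene probe sets, the brighter ones correlated with the one used at r of 0.92 to 0.99 and the dim ones less closely. The 4 other Hmgcs1 probe sets correlated with the one used at r of 0.99, 0.92, 0.92 and 0.55, the lowest from a probe set with a median of 5.00. The other Idi1 probe set had r of 0.96 and the brighter of 3 others for Fdft1 had 0.93, against 0.12 and 0.063 for 2 Fdft1 probe sets that never passed 5.26. The 2 others for Lss, with medians of 5.16 and 5.16, had r of 0.58 and 0.23, and the other Mvk probe set had r of 0.41. Sqle and Insig1 had 1 each. Results for Lss and Mvk therefore rest on a single dim probe set. Values from their others are given below with Klf1 for both genes, with Insig1 for Lss and with Mki67 for Mvk. All other relations of Lss and Mvk come from the probe set used alone.

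Across the 47 tumours Fdft1, Sqle and Lss, the late enzymes, were correlated with each other, Insig1 went with Hmgcs1 as well as with Sqle and Fdft1, and Mvk was called with none. Each pair was tested with limma fits of all genes on one member and then on the other, and called where the adjusted p was under 0.05 in both; the larger of these is given. Of 21 pairs, 7 were called, all with positive r. The closest was Sqle with Lss (Pearson's r = 0.64, Spearman's rho = 0.65, permutation p = 1e-05, the smallest that 100000 resamples give, limma adjusted p = 3.7e-05, n = 47). Fdft1, which makes the substrate of Sqle, went with Sqle (r = 0.55, limma adjusted p = 0.0023) and with Lss (r = 0.52, limma adjusted p = 0.0049). Insig1 went with Hmgcs1 (r = 0.59, rho = 0.58, limma adjusted p = 0.0052), with Sqle (r = 0.56, limma adjusted p = 0.0074) and with Fdft1 (r = 0.44, limma adjusted p = 0.044). Idi1 with Lss was the last called pair (r = 0.44, limma adjusted p = 0.048), and Idi1 with Sqle (r = 0.42, limma adjusted p = 0.055), Lss with Insig1 (r = 0.42, 0.064) and Idi1 with Fdft1 (r = 0.40, 0.069) lay just outside.

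Many other genes also follow these enzymes, so the background matters. Of 18177 genes, 20.5% were called higher and 13.1% lower with Lss, 17.3% and 8.29% with Sqle, and 11.5% and 5.33% with Fdft1. For Hmgcs1 the shares were 6.48% and 5.18%, for Insig1 3.31% and 0.424%, for Idi1 3.31% and 1%, and for Mvk 0% and 0.0055%. Insig1 ranked 143rd among all genes by its r with Hmgcs1, and Hmgcs1 ranked 36th by its r with Insig1. Lss ranked 405th by its r with Sqle, and Sqle 785th by its r with Lss.

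Over all arrays Hmgcs1 was called with none of the later enzymes described here. Its r was 0.23 with Idi1, 0.22 with Sqle, 0.046 with Fdft1 and 0.015 with Lss, none of them called (limma adjusted p from 0.30 to 0.96). Without mouse 1 of those lacking the Erg insertion these were 0.017, 0.12, -0.082 and -0.23, while Hmgcs1 with Insig1 kept r of 0.52. Other fits, given below, differed. Hmgcs1 with Sqle had r of 0.61 in arrays low in Vpreb1 and Cd3d and 0.58 in those high in either, neither called. With the first principal component of all genes as covariate, Hmgcs1 was called with Sqle (partial r = 0.64) and Lss (0.63), but not with Idi1 or Fdft1. It was also called higher with 7 of 12 other sterol synthesis genes, later enzymes among them. Mvk had r between -0.29 and 0.19 with the other 6, with no adjusted p below 0.44.

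**Figure D2:**
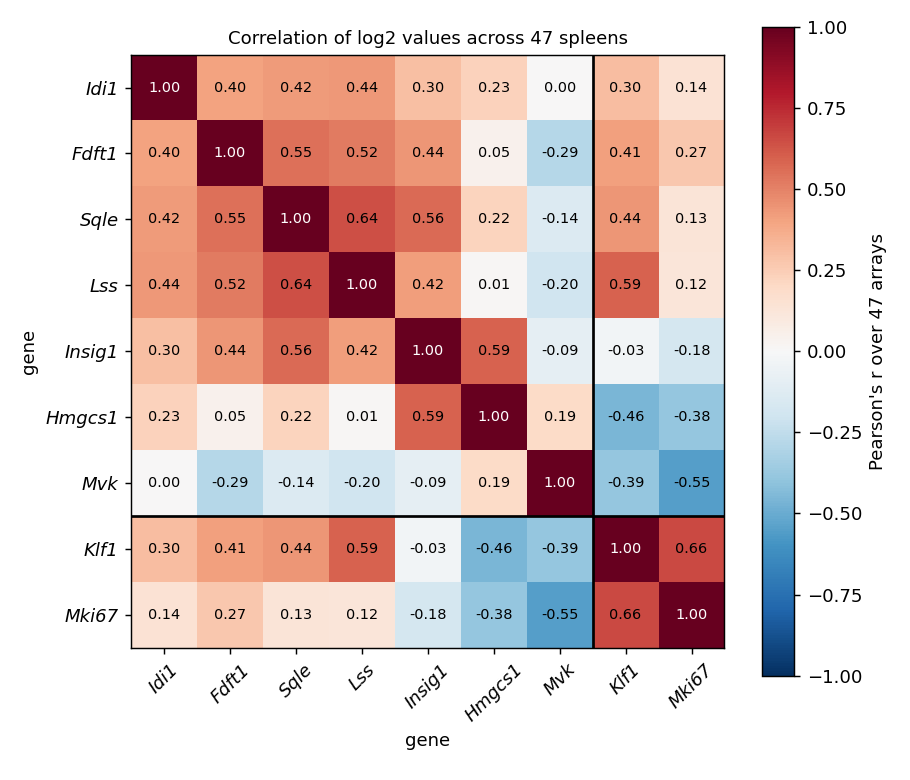
Pearson's r of log2 values over 47 arrays between each pair of the 7 genes, Klf1 and Mki67, with black lines setting off the markers. Idi1, Fdft1, Sqle and Lss form a block of positive r from 0.40 to 0.64, Hmgcs1 pairs mainly with Insig1 (0.59), and Mvk has its strongest r with Mki67 (-0.55).

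Which pairs passed the threshold depended on the arrays used, and subsets hold fewer arrays, which lowers the number of calls. Without mouse 1 of those lacking the insertion, 5 pairs were called, all among the 7; the call of Idi1 with Lss was lost on leaving out any of 31 single arrays and that of Fdft1 with Insig1 on leaving out any of 19. Within the 25 arrays low in Vpreb1 and Cd3d, Sqle with Lss (r = 0.66) and Sqle with Insig1 (r = 0.76) were called, and Idi1 with Lss turned to r = -0.12. Within the 22 arrays high in either, Hmgcs1 with Insig1 (r = 0.74) and Idi1 with Lss (r = 0.78) were called. Pairs that lost their call often kept their r. Hmgcs1 with Insig1 had r of 0.67 in the low arrays, and in the high ones Sqle had 0.55 with Insig1 and 0.49 with Lss. In the low and high arrays, r was 0.51 and 0.44 for Fdft1 with Sqle and 0.44 and 0.66 for Fdft1 with Insig1. Fdft1 with Lss had 0.18 in the low arrays and 0.58 in the high ones. Hmgcs1 with Sqle, r = 0.22 over all arrays, was 0.61 in the low arrays and 0.58 in the high ones, and Hmgcs1 with Lss, r = 0.015 over all, was 0.36 and 0.60. Neither was called within a class, and the difference between classes was not tested.

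Klf1 codes for a transcription factor of red cell precursors and served as the erythroid marker. Mki67 is a marker of dividing cells. Marker relations were called from the fits of all genes on the marker only, not in both directions as pairs were. In the fit of all genes on Mvk, neither marker was called. Klf1 ran from 5.62 through 9.14 to 9.99 and Mki67 from 8.96 through 9.75 to 10.60, and the markers themselves correlated (r = 0.66, rho = 0.56, n = 47). The cholesterol genes went opposite ways with Klf1. Lss (r = 0.59, rho = 0.51, limma adjusted p = 9.8e-05), Sqle (r = 0.44, rho = 0.45, limma adjusted p = 0.0075) and Fdft1 (r = 0.41, rho = 0.44, limma adjusted p = 0.014) were higher in tumours with more Klf1. Hmgcs1 (r = -0.46, rho = -0.56, limma adjusted p = 0.0050) and Mvk (r = -0.39, rho = -0.38, limma adjusted p = 0.027) were lower. Idi1 (r = 0.30, limma adjusted p = 0.089) and Insig1 (r = -0.027, limma adjusted p = 0.91) were not called. That is 3 of 7 higher and 2 of 7 lower, where 18.9% of all genes were called higher and 14.8% lower with Klf1. The Mvk call was lost when arrays were centred on their medians (r = -0.20, limma adjusted p = 0.25), without the 2 arrays farthest from the median Klf1 (0.057), and without Erg insertion mouse 26 (0.093) or mouse 2 lacking the insertion (0.057). Centring also brought Idi1 past the threshold (r = 0.33, limma adjusted p = 0.046). The permutation p of the 5 called genes ran from 1e-05 to 0.0078.

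Other probe sets and other cell types bear on these relations. The 2 other Lss probe sets had r of 0.12 and 0.15 with Klf1 (0.55 and 0.035 with Insig1), and the second Mvk probe set had r of -0.042, whereas all 4 others for Hmgcs1 were negative (-0.53 to -0.30) and the second bright Fdft1 probe set had 0.46. The first principal component of all genes carried 35.7% of the variance and correlated with Klf1 at r of 0.83; with it as a covariate none of the 7 was called by limma, and the partial r with Klf1 lay between -0.30 and -0.077. Within the 25 arrays low in Vpreb1 and Cd3d, where Klf1 was between 7.69 and 9.76, Sqle was the only gene called (r = 0.61, limma adjusted p = 0.016) and Hmgcs1 had r of 0.21. Within the 22 arrays high in either, none was called, with r of -0.26 for Hmgcs1 and 0.31 for Lss.

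**Figure D3:**
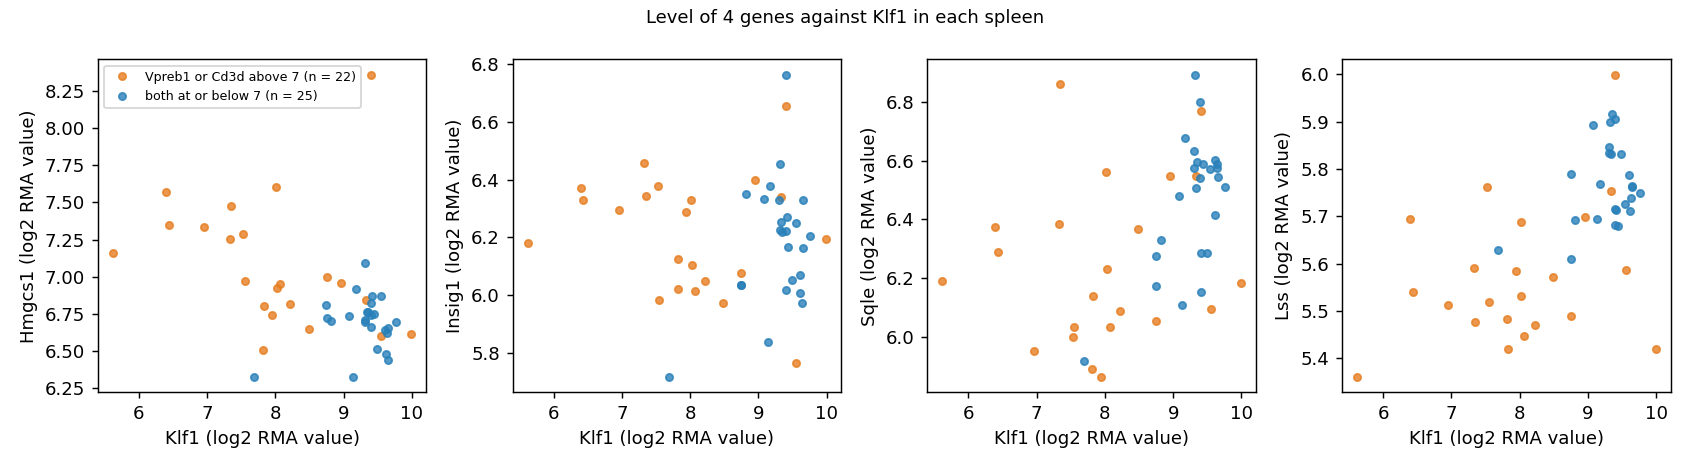
Log2 level of Hmgcs1, Insig1, Sqle and Lss (vertical, each panel on its own scale) against log2 Klf1 (horizontal), 1 point per spleen, in orange where Vpreb1 or Cd3d was above 7 (n = 22) and in blue where both were at or below 7 (n = 25). Hmgcs1 is highest at low Klf1 among the orange points apart from 1 array at 8.36, and the blue points of all 4 genes lie almost entirely at Klf1 of 8.7 or more.

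Marker genes of other blood cells moved with the same enzymes. All 7 measured T cell genes were called higher with Hmgcs1 (Cd3d, r = 0.58), 0 of 8 B cell genes were called, and 9 of 14 erythroid genes were called lower (Gata1, r = -0.55), where 6.48% of all genes were higher and 5.18% lower. With Lss the pattern was another: all 8 B cell genes (Vpreb1, r = -0.74), 8 of 9 monocyte and macrophage genes (Csf1r, r = -0.78) and 8 of 9 neutrophil genes (S100a8, r = -0.58) were called lower, and 8 of 14 erythroid genes higher (Gata1, r = 0.61), where 13.1% of all genes were lower and 20.5% higher. With Sqle, 8 of 9 neutrophil, 7 of 9 monocyte and 4 of 8 B cell genes were called lower and 4 of 14 erythroid genes higher, where 8.29% of all genes were lower and 17.3% higher. With Fdft1, 6 of 9 monocyte and 6 of 8 B cell genes were called lower and 7 of 14 erythroid genes higher, where 5.33% of all genes were lower and 11.5% higher. Of 7 megakaryocyte and platelet genes, 5 were called lower with Lss, 3 with Sqle and 1 with Fdft1. With Idi1, 3 of 8 B cell genes and 1 of 9 monocyte genes were called lower and 1 of 14 erythroid genes higher, where 1% of all genes were lower and 3.31% higher. Insig1 and Mvk had no called gene in these 6 lists. T cell genes sat near the floor in most tumours (Cd3d median 5.54, highest 10.23), as did B cell genes (Vpreb1 median 5.47, highest 11.06). The part these cells play in the relations to Klf1 was not tested.

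With Mki67, Mvk alone was called: tumours with more Mki67 had less Mvk (r = -0.55, rho = -0.50, permutation p = 3e-05, limma adjusted p = 0.0031), where 5.2% of all genes were called lower and 5.76% higher. The second Mvk probe set had r of -0.33. The slope was a fall of 0.090 log2 units of Mvk per log2 unit of Mki67 (SE 0.021), a small change on a probe set with a whole range of 0.27. Hmgcs1 had r of -0.38 (limma adjusted p = 0.059), which was called on leaving out any of 5 single arrays, with an adjusted p of 0.018 without mouse 1 of those lacking the insertion. The other 5 genes had r between -0.18 and 0.27, none called. In the opposite fits, of all genes on each of the 7, the fixed list of 22 cell cycle genes included Mki67. Mvk was called with 0 of the 22, so its relation to Mki67 was not called in that direction. Hmgcs1 was called with 1, which was lower, where 5.18% of all genes were called lower. Sqle was called higher with 8 and Lss with 4, where 17.3% and 20.5% of all genes were. Fdft1 was called higher with 2 and Idi1 with 1, where 11.5% and 3.31% of all genes were. Lss was called lower with 1, where 13.1% of all genes were. Apart from that of Sqle, these counts are near or below the shares of all genes. Mki67 itself was called higher with 9 of the 21 other cell cycle genes (median r = 0.39) and with 13 of 14 erythroid genes (median r = 0.61). With both markers in one model, 2 of 7 genes were called higher with Klf1, Lss (partial r = 0.69, limma adjusted p = 2.7e-06) and Sqle (partial r = 0.48, limma adjusted p = 0.0035), against 20.8% of genes higher and 13.2% lower. Lss was also called lower with Mki67 at equal Klf1 (partial r = -0.45, limma adjusted p = 0.035), where 3.94% of genes were lower and 2.16% higher, though its plain r with Mki67 was 0.12. Mvk lost its call with Mki67 at equal Klf1 (partial r = -0.43, limma adjusted p = 0.052).

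With both markers as covariates 7 of 21 pairs were called, 5 of them among the 7 called without covariates. They lay among Hmgcs1, Fdft1, Sqle, Lss and Insig1, and no pair with Idi1 or Mvk was called. Hmgcs1 with Insig1 had a partial r of 0.64 (limma adjusted p = 0.0033), Sqle with Insig1 0.62 (0.0046) and Sqle with Lss 0.48 (0.012). Hmgcs1 with Sqle, at r of 0.22 without covariates, had a partial r of 0.52 (limma adjusted p = 0.032), and Lss with Insig1 had 0.50 (0.021). Fdft1 with Sqle kept its call (partial r = 0.47, limma adjusted p = 0.047). The calls of Fdft1 with Lss (0.41, 0.094) and of Idi1 with Lss (0.33, 0.30) were lost. With the first principal component as covariate, 5 pairs were called, 2 of them among the original 7, and Hmgcs1 was in 3: with Insig1 (partial r = 0.70), Sqle (0.64) and Lss (0.63). Those adjusted p-values were 0.00017, 0.0014 and 0.0018 by limma. No pair among Fdft1, Sqle and Lss was called in that fit. Partial r was 0.38 for Sqle with Lss (limma adjusted p = 0.085), 0.35 for Fdft1 with Sqle (0.68) and 0.16 for Fdft1 with Lss (0.90).

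The other enzymes of the pathway were read from a fixed list of sterol synthesis genes, of which 12 outside the 7 were used. With Insig1, 8 of these 12 were called higher and 0 lower by limma, where 3.31% of all genes were called higher. The largest r were for Dhcr7, the reductase that yields cholesterol (r = 0.70), and Msmo1, an oxidase of sterol methyl groups (0.66). Sc5d, a sterol desaturase (0.57), and Nsdhl, a sterol dehydrogenase (0.55), came next. With Hmgcs1, 7 of 12 were called higher against 6.48% of all genes, led by Sc5d (r = 0.60), Cyp51, the lanosterol demethylase (0.57), Fdps, which makes farnesyl diphosphate (0.53), and Msmo1 (0.50). The median r of the 12 was 0.49 with Insig1 and 0.47 with Hmgcs1, against 0.0024 and -0.081 over all genes.

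With the later enzymes the counts were 6 of 12 for Lss, 5 for Sqle, 5 for Fdft1, 2 for Idi1 and 0 for Mvk, with 0 lower. The shares of all genes called higher were 20.5% for Lss, 17.3% for Sqle, 11.5% for Fdft1, 3.31% for Idi1 and 0% for Mvk. Lss went with Nsdhl (r = 0.67), Ebp, a sterol isomerase (0.62), Tm7sf2, a sterol reductase (0.54), and Fdps (0.51). Sqle went with Ebp (r = 0.70), Msmo1 (0.70), Nsdhl (0.67) and Fdps (0.59). Fdft1 went with Msmo1 (r = 0.49), Pmvk, the kinase after Mvk (0.49), Ebp (0.48) and Mvd, the decarboxylase that follows (0.45). Idi1 went with Msmo1 (r = 0.62) and Fdps (0.50). Msmo1 and Fdps were called higher with all 6 of the genes other than Mvk.

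Among 6 genes that control SREBP, the counts stand against shares of all genes called higher of 20.5% with Lss, 17.3% with Sqle, 11.5% with Fdft1, 6.48% with Hmgcs1 and 3.31% with Idi1 and Insig1, and the 1 of 6 with Fdft1 is near that share. Lss was called higher with 3, led by Srebf1, which codes for SREBP-1 (r = 0.51), Insig2 (0.45) and the protease gene Mbtps2 (0.38). Hmgcs1 was called with 2, Srebf2, which codes for SREBP-2 (r = 0.45), and the protease gene Mbtps1 (0.43). Sqle was called with Srebf1 (0.38) and Insig2 (0.37), Idi1 with Insig2 (0.50) and Mbtps2 (0.49), Insig1 with Srebf1 (0.49) and Fdft1 with Srebf1 (0.51). None of the 6 was called lower.

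**Figure D4:**
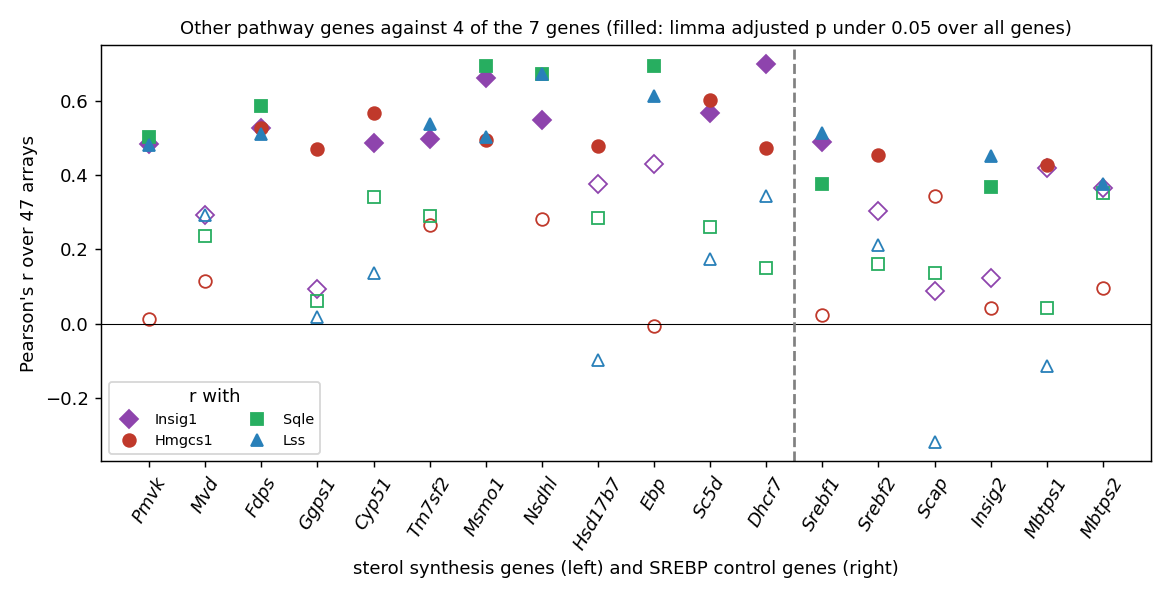
Pearson's r over 47 arrays of 12 other sterol synthesis genes (left of the dashed line) and 6 SREBP control genes (right) with Insig1, Hmgcs1, Sqle and Lss, filled where the limma adjusted p over all genes was under 0.05. Msmo1 and Fdps are filled for all 4, Cyp51, Sc5d and Dhcr7 for Insig1 and Hmgcs1, and Ebp for Sqle and Lss.

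Uptake and lysosomal release were read from 6 genes. Stard4, a cytosolic sterol carrier, was called higher with Idi1 (r = 0.63), Fdft1 (0.54), Lss (0.44) and Sqle (0.38). Npc2, which carries cholesterol out of the lysosome, was called higher with Hmgcs1 (r = 0.43) and lower with Lss (-0.44) and Sqle (-0.39). Lipa, the lysosomal lipase, was higher with Hmgcs1 (0.41) and lower with Lss (-0.39). No other gene of the list was called with any of the 7. Of all genes, 20.5% were called higher with Lss, 17.3% with Sqle, 11.5% with Fdft1, 6.48% with Hmgcs1 and 3.31% with Idi1. The 1 of 6 higher with each of Lss, Sqle and Fdft1 is near those shares. Lower were 2 of 6 with Lss and 1 of 6 with Sqle, where 13.1% and 8.29% of all genes were. Of 4 efflux and storage genes, Abcg1, a sterol exporter, and Nr1h3, the nuclear receptor LXR alpha, were called lower with Lss (r = -0.61 and -0.68), Sqle (-0.52 and -0.46) and Fdft1 (-0.44 and -0.42), and Nr1h3 with Idi1 (-0.44). Monocyte genes were lower with the same 3 enzymes, as given above, and their part in this was not tested. Of all genes, 13.1% were called lower with Lss, 8.29% with Sqle, 5.33% with Fdft1 and 1% with Idi1.

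Of 11 fatty acid synthesis genes, 6 were called higher and 2 lower with Lss, 5 and 0 with Sqle, 4 and 2 with Fdft1, 4 and 0 with Insig1 and 3 and 1 with Hmgcs1. Srebf1 is in this list and in that of SREBP control, so its calls with Lss, Sqle, Fdft1 and Insig1 are counted in both. The shares of all genes called higher and lower were 20.5% and 13.1% with Lss, 17.3% and 8.29% with Sqle, 11.5% and 5.33% with Fdft1, 3.31% and 0.424% with Insig1, and 6.48% and 5.18% with Hmgcs1, so the 2 of 11 lower with Lss are near the share of all genes. Acss2, which makes acetyl-CoA from acetate, had r of 0.77 with Lss, 0.68 with Fdft1 and 0.55 with Sqle. Fasn, the fatty acid synthase, had r of 0.56 with Insig1 and 0.48 with Hmgcs1, and Acaca, the acetyl-CoA carboxylase, had 0.55 and 0.51. Elovl6, an elongase, was lower with Lss (r = -0.66) and Fdft1 (-0.47). Idi1 and Mvk had no called gene in this list.

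Among the 18171 genes outside the 7, Msmo1 had the highest mean r with them (0.49 over 47 arrays) and Fdps the next (0.47). The next 8 were Gtf2e1 (0.44), Hibch (0.44), Smim26 (0.43), Rars (0.43), Mrps17 (0.43), Ebna1bp2 (0.43), Dhodh (0.42) and Rpp40 (0.42), none of them in the sterol lists. Nsdhl ranked 50th and Ebp 192nd. Taken singly, the closest genes were Tmed5 (r = 0.77), Fam72a (0.72) and Hspb11 (0.72) for Hmgcs1, and Dhcr7 (0.70), Slc35b4 (0.69) and Rpp40 (0.67) for Insig1. Lss was closest to BC003965 (0.84), Isg20l2 (0.84) and Nkrf (0.83), and Sqle to Cct5 (0.81), Mrps17 (0.81) and Nup43 (0.81). Fdft1 was closest to Setdb1 (0.74), Fbxo33 (0.72) and Atg16l1 (0.70), Idi1 to Gtpbp4 (0.74), Cda (0.68) and Hibch (0.67), and Mvk to Stard6 (0.59), BC065397 (0.58) and Il15ra (0.55). A sterol enzyme was thus among the closest 3 for Insig1 only.

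The 7 genes did not differ by Erg insertion label beyond their spread. The sex label did not match in 24 arrays, so it is in doubt whether the Erg labels belong to their arrays. Misplaced labels would also leave no difference, so this comparison cannot show that the Erg groups are alike. Idi1 ran from 6.58 through 7.12 to 8.51 in Erg insertion mice, against 6.55 through 6.91 to 8.25 in mice without. The means were 7.23 ± 0.47 (SD, n = 26) in Erg insertion mice and 7.06 ± 0.42 (n = 21) in the others, a difference of 0.15 with line and sex label as covariates (SE 0.13, limma adjusted p = 0.999). Sqle averaged 6.40 ± 0.29 in Erg insertion mice and 6.32 ± 0.24 in the others, a difference of 0.081 (SE 0.082). Hmgcs1 averaged 6.89 ± 0.34 and 6.86 ± 0.42 in these groups, and Insig1 6.22 ± 0.20 and 6.17 ± 0.22. The groups overlapped for every one of the 7, permutation p-values of the group means ran from 0.207 to 0.838, and no member had an unadjusted limma p under 0.05. None of the 18178 genes was called by limma (0%), with 666 at an unadjusted p under 0.05.

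**Figure D5:**
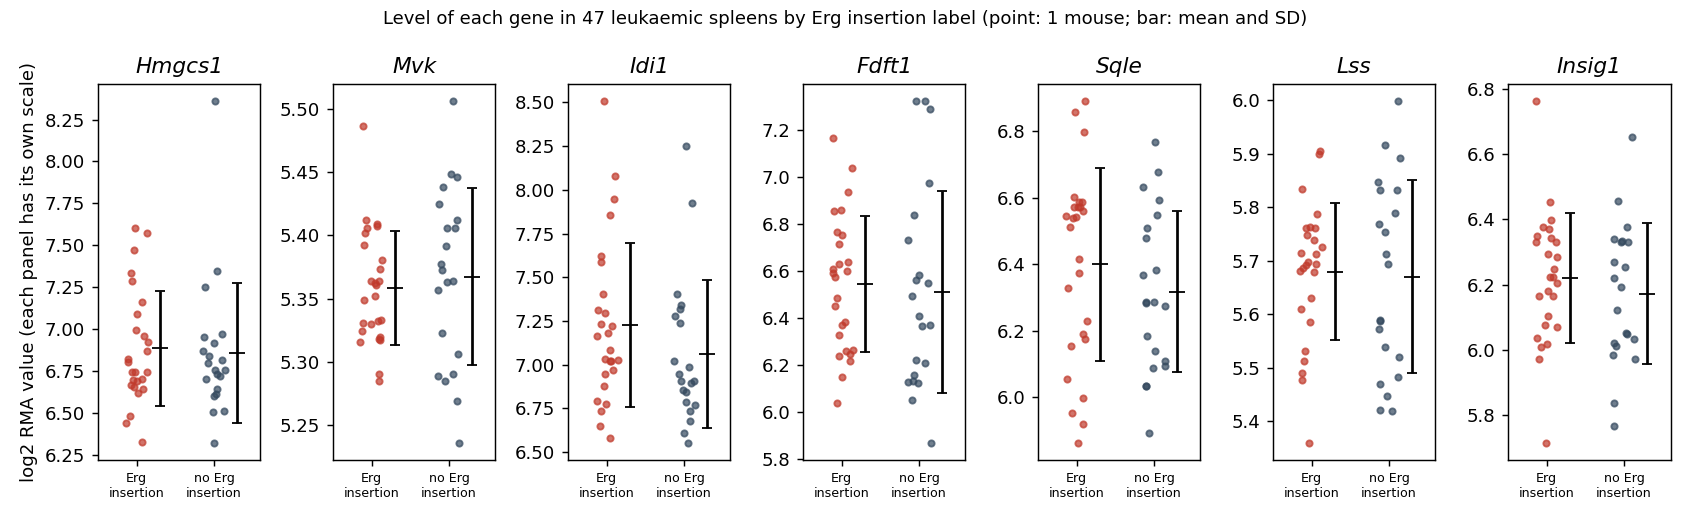
Log2 RMA level of each of the 7 genes (vertical, each panel on its own scale) in 26 mice with an Erg insertion (left, red) and 21 without (right, dark), 1 point per mouse, with the mean and SD as a bar. The points of both groups cover nearly the same range in every panel, and the single high Hmgcs1 point at 8.36 is a mouse without the insertion.

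Nor were the 7 genes called by any other label. Fdft1 averaged 6.44 ± 0.37 in line 6113 (n = 21) and 6.60 ± 0.34 in line 6070 (n = 26), a difference of -0.16 (SE 0.11, limma adjusted p = 0.999), the line difference with the smallest p among the 7. By sex label, Idi1 averaged 7.22 ± 0.46 in mice labelled female (n = 25) and 7.08 ± 0.43 in those labelled male (n = 22), a difference of 0.16 (SE 0.13). Slopes on age were within 0.037 log2 units per 10 units of age for all 7. The product of Erg label and line was 0.37 for Fdft1 (SE 0.21, limma adjusted p = 0.73), with the smallest p of the 7 for that term. For line, sex label, age and the product, 0% of all genes were called, with 540, 460, 688 and 1286 genes at an unadjusted p under 0.05. Labels that did not belong to their arrays would also leave genes uncalled, and the sex label did not match in 24 arrays. These fits therefore cannot show that the genes are alike between Erg groups, lines, sexes or ages.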

How the data were processed

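The authors made the deposited log2 values with RMA in the affy package (R 2.15), per the submitters' processing notes. Per the labels' protocols, RNA came from frozen spleen and was copied with an in vitro transcription kit that starts at the end of the transcript. RMA subtracts background, quantile normalizes arrays and summarises probes. The table held 45101 probe sets, 64 of them controls, with 0 missing values between 4.78 and 12.99. Pairs of arrays correlated at 0.903 to 0.991. The number of arrays limits the precision.

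Names came from the platform annotation: 34945 probe sets had 1 gene, 932 several and 9160 none. RefSeq matched 34741, with 0 symbols changed. The brightest single-gene probe set per gene gave 18193 genes. Genes had to exceed log2 5 in 9 or more arrays, which 18178 did, and these entered limma 3.58.1 (R 4.3.3), with p-values adjusted by Benjamini-Hochberg across the whole table and a threshold of 0.05, after a test of the procedure on simulated data. Each label was tested with the others as covariates, except that age entered only its own fit. Correlations had two-sided permutation p-values from 100000 resamples. There were 21 pairs and 14 marker relations.

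All 7 genes were named, with the 4 largest called r per pathway list and member, the 10 genes with the highest mean r, the 3 closest per gene, the 3 highest and lowest arrays, and at most 4 promoters, those with the sterol core first and then by number of CCAAT boxes, ties by name. Marker genes beside these were picked as examples after their values were seen. The genes, the 12 gene lists and these rules were chosen with earlier results of these data known. Of 134 list genes, 121 were used, and the others are not reported here. Every mouse is a separate animal. The alternatives were other probe sets, filters, centring, ranks, covariates and subsets of arrays, and leaving out arrays. Among the 7 genes, taking the most variable probe sets changed the probe set of Hmgcs1 only. For the others it kept the same values, so it is no check of their relations to each other.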

Additional observations from a re-analysis of the deposited data

How the results depend on the processing

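No paired analysis was possible because mouse numbers were given in order of deposit and pair no mice. Calls by Erg label, line, sex label, age and their product stayed at 0 of 7 under each alternative run. Against 7 called pairs over all arrays, 1 was called in tumours whose identifier number was 7, 2 in Erg insertion mice, 1 in mice without the insertion, 2 in arrays low in Vpreb1 and Cd3d, 2 in arrays high in either (a subset chosen after seeing the data), and 4 without the 2 arrays farthest from the median. Against 5 called with Klf1, 2 were called at identifier 9, 2 at identifier 7, 0 in mice without the insertion, 0 given the first component, 1 in arrays low in the lymphoid genes and 0 in those high in either. Centring kept that count at 5 but lost Mvk and gained Idi1. Against 1 called with Mki67, 2 were called with the most variable probe sets, 2 in Erg insertion mice, and 0 at identifier 9, at identifier 7, in mice without the insertion, and in either lymphoid class. In the joint model 1 remained for Klf1 and 0 for Mki67 in the arrays low in lymphoid genes. Subsets hold fewer arrays, which lowers the number of calls by construction. Leaving out single arrays (also added after seeing the data) gave 5 to 9 called pairs, 4 to 5 genes called with Klf1 and 1 to 2 with Mki67.

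Some correlations changed sign, and the cause was not tested. Pairs with Mvk and relations to Mki67 other than that of Hmgcs1 are not listed in full, though some also turned. Lss with Mki67, at r of 0.12 over all arrays, was -0.21 in the arrays low in lymphoid genes. It was -0.14 in mice without the insertion and -0.34 given the first component. The changes among the other relations follow. Hmgcs1 with Lss was -0.018 with the most variable probe sets, -0.14 by ranks, -0.093 at identifier 7, -0.31 in Erg insertion mice, -0.00031 given RNA quality and -0.25 without the farthest arrays. Hmgcs1 with Fdft1 was -0.0099 by ranks, -0.16 at identifier 7, -0.20 in Erg insertion mice and -0.082 without the farthest arrays. Hmgcs1 with Idi1 was -0.045 in Erg insertion mice. In the arrays low in lymphoid genes Idi1 with Lss was -0.12, Hmgcs1 with Klf1 0.21, Hmgcs1 with Mki67 0.22 and Insig1 with Klf1 0.36. Insig1 with Klf1 was 0.024 after centring, 0.24 at identifier 7, 0.033 in mice without the insertion, 0.0057 given RNA quality and 0.011 without the farthest arrays. Given the first component, r with Klf1 was -0.12 for Idi1, -0.11 for Fdft1, -0.077 for Sqle and -0.17 for Lss. Signal near the array floor limits Mvk and Lss most.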
